A study of Mus musculus with 6 samples.

Results

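The glucocorticoid receptor gene Nr3c1 and 7 genes that the receptor is known to induce (Fkbp5, Tsc22d3, Sgk1, Klf9, Ddit4, Cebpd and Zbtb16) were followed in CD11c+ cells from the spleens of mice hypomorphic for Atg16L1 and of wild-type mice. Every probe set that names exactly 1 of these 8 genes was taken, which gave 21 probe sets, of 20379 on the array that name a single gene, and 8 genes of 12393. The samples were 3 arrays from Atg16L1 hypomorphs and 3 from wild-type mice, all on the C57BL/6J background, 8 weeks of age and untreated. A hypomorphic allele has reduced function, and ATG16L1 belongs to the enzyme complex that attaches LC3 to the growing autophagosome. The labels do not describe how the allele was made, nor whether the arrays stand for separate animals, and the p-values therefore speak of the spread among these 6 samples, which may be technical. The cells were selected on CD11c with magnetic beads.

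The glucocorticoid receptor is a nuclear receptor that waits in the cytosol in a complex with HSP90 and its co-chaperones until it binds corticosterone, the main glucocorticoid of the mouse. It then enters the nucleus, binds palindromic response elements in DNA and raises transcription of target genes, and it also represses inflammatory genes by acting against NF-kB and AP-1. In dendritic cells glucocorticoids are known to restrain maturation, in part through GILZ, the protein encoded by Tsc22d3. Several of the target genes also answer to other signals: Sgk1 to growth factors, Ddit4 to stress and hypoxia, and Klf9 and Ddit4 to FOXO factors.

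The data are log2 expression values, 1 per probe set and array, with array medians between 5.72 and 5.79 over the probe sets tested. Genotypes were compared with limma, and a probe set is said to have risen or fallen when its p, adjusted over all 20379 probe sets by Benjamini-Hochberg, was under 0.05. Atg16l1 was at 6.13, 5.84 and 6.11 in the hypomorph arrays, against 7.05, 7.11 and 7.04 in the wild-type arrays. Mean signal of the 24 poly-A spike-in probe sets, which report bacterial RNA added before labelling, was 7.69 ± 0.18 in the hypomorph and 9.48 ± 0.50 in wild type (SD, n = 3 each; two-sided exact permutation p = 0.1, the smallest that 3 against 3 arrays allow). With that signal as a covariate in limma, 0 of all probe sets passed (0%), 0 of the members among them. At an unadjusted p under 0.05 there were 1932 probe sets, 3 of them members, and standard errors were 2.95 times as large in the median. Genotype and spike-in signal cannot be told apart in 6 arrays whose groups do not overlap in it.

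Sgk1 and Tsc22d3 were clearly higher in the hypomorph, Ddit4 was moderately higher, and Fkbp5, Klf9 and Cebpd did not pass by any probe set. Of the 21 member probe sets 6 rose and 0 fell (none at an unadjusted p under 0.05 in that direction, with limma). That is 28.6% of the members, against 9.95% of all probe sets that rose and 7.73% that fell. The 6 that rose were those of Sgk1 and Ddit4, 2 of the 3 of Tsc22d3, and 1 each of Nr3c1 and Zbtb16, so probe sets of the same gene are counted more than 1 time. By the probe set of highest mean for each gene, 3 of the 8 genes rose, against 9.76% of all 12393 genes. The arrays of the 2 groups did not overlap for the same number of member probe sets, 6 higher and 0 lower, where 19% of all probe sets were higher and 20.8% lower without overlap. The median log2 difference was 0.13 over the members and -0.04 over all probe sets. Without any 1 hypomorph array 3 member probe sets passed, those of Sgk1 and Tsc22d3, and with the replicate number as a block the same 3 did, where 6.64% of all probe sets rose.

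**Figure D1:**
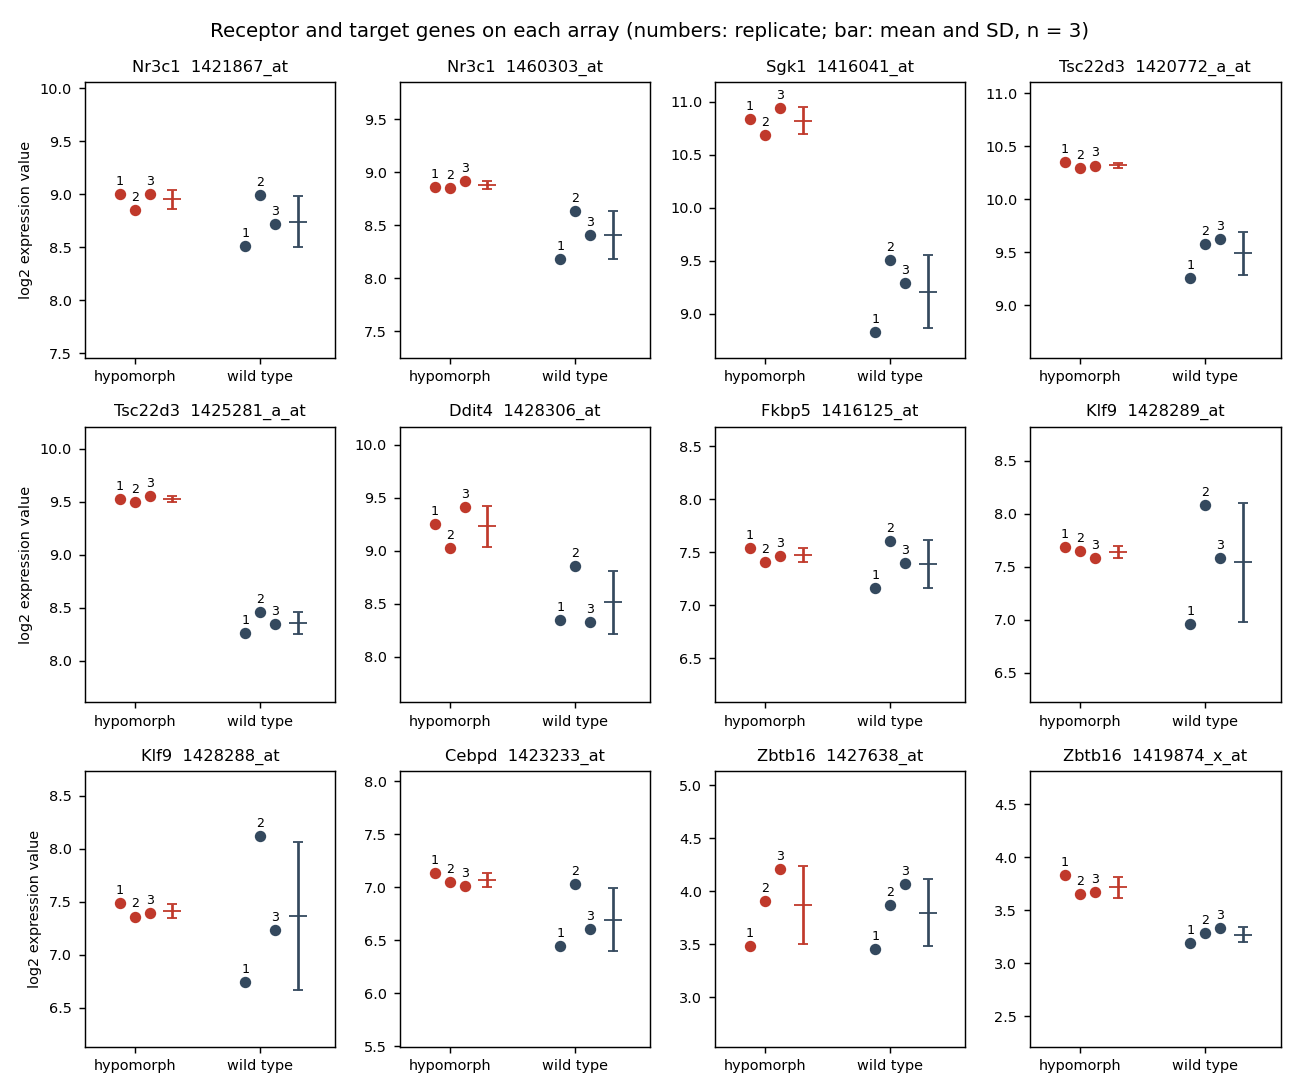
Log2 expression value (vertical axis, the same span of 2.6 units in each panel) of 12 member probe sets on the 3 hypomorph arrays (red) and the 3 wild-type arrays (grey), with the replicate number above each point and the mean and SD beside it. The Sgk1 points lie between 10.69 and 10.94 in the hypomorph, above 8.83 to 9.51 in wild type, while those of Fkbp5 and Klf9 overlap.

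The sequences just before the start of transcription are shown for the 3 genes whose brightest probe set rose. Fkbp5, the textbook target that did not pass, is shown beside them. The printed windows of Sgk1 and Tsc22d3 are not all of theirs, and each printed one holds a match to the 6-base site given below. Such a match was in 3 of the 6 Sgk1 windows and 1 of the 3 Tsc22d3 windows. Fkbp5 and Ddit4 had 1 window each, so the genes did not have equal numbers of windows to match. Only matches to the receptor's element within the printed bases can be read off. They are the 250 bases before an annotated start in RefSeq's table for GRCm38.p6, printed 5' to 3' on the strand of the gene, with every match to the 6-base site AGAACA, on either strand (TGTTCT on the other), in capitals. The palindromic element is spelled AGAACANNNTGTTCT and contains that 6-base site on both strands.
Sgk1, start 5 of 6, chr10:21993640-21993889, plus strand: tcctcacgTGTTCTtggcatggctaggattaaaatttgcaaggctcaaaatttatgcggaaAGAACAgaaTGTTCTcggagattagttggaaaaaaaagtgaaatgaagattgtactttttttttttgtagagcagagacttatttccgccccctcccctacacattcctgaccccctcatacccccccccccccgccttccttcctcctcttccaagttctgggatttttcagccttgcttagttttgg
Sgk1, start 1 of 6, chr10:21881934-21882183, plus strand: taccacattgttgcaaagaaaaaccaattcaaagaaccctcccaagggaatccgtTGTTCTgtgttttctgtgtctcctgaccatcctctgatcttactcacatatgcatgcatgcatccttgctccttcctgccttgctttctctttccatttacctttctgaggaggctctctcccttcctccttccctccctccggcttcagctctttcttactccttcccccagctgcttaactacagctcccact
Tsc22d3, start 1 of 3, chrX:140600523-140600772, minus strand: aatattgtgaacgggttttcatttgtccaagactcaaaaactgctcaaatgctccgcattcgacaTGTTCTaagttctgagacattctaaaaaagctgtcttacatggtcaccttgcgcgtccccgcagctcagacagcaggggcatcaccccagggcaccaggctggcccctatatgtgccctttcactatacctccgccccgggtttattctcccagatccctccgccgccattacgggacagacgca
Ddit4, chr10:59951771-59952020, minus strand: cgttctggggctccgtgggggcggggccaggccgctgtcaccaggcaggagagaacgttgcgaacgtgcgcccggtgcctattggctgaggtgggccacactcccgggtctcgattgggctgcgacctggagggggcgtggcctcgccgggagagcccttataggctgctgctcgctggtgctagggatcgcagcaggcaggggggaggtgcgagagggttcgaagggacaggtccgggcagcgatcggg
Fkbp5, chr17:28486150-28486399, minus strand: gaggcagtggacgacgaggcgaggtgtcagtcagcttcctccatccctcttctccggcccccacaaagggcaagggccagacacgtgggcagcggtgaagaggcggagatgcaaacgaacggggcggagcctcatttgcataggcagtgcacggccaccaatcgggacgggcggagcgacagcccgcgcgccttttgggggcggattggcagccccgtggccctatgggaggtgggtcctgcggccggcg

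Start 5 of Sgk1 carried a complete palindrome, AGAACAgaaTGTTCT, at chr10:21993701-21993715, beginning 189 bases before the start, and a further 6-base site beginning 242 bases before it. Among all 32851 windows of the same 300-base length (250 before and 50 after a start) in the table, 3 held the complete palindrome, which is 0.00913%, and 54 held it with up to 1 mismatch (0.164%). At least 1 of the 6-base sites was found in 19% of all windows and at least 3 in 0.31%. Windows were kept for 5 of the 8 members, namely Fkbp5, Tsc22d3, Sgk1, Klf9 and Ddit4, 12 windows in all. Member windows on the chromosome of Nr3c1 were left out of the results, so no count of matches is given for the receptor gene itself. The 6-base site occurred in 4 of these 12, 3 of them of Sgk1 and 1 of Tsc22d3, and those of Fkbp5, Klf9 and Ddit4 had no match. A match is a description of letters and not a measured binding site, and the array does not tell which start was used. Elements outside these windows, farther upstream or in introns, were not examined, so a window without a match does not show that a gene lacks the element.

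Nr3c1 itself was covered by 3 probe sets that did not give the same call. Probe set 1460303_at was at 8.86, 8.85 and 8.92 in the hypomorph, against 8.18, 8.64 and 8.41 in wild type. All 3 hypomorph arrays lay above all wild-type arrays, and the probe set rose 1.39-fold (log2 difference 0.47, SE 0.12, limma adjusted p = 0.0389). Probe set 1421867_at, of the same gene, was at 9.0, 8.85 and 9.0 in the hypomorph and 8.51, 8.99 and 8.72 in wild type. Here wild-type replicate 2 reached the hypomorph arrays, and the difference of 0.21 (95% interval -0.09 to 0.51) did not pass. The dim probe set 1421866_at, at 4.47, 3.97 and 3.99 in the hypomorph and 4.21, 4.41 and 4.15 in wild type, differed by -0.11 (interval -0.47 to 0.24). The call of 1460303_at was lost when any array but wild-type replicate 2 was left out (adjusted p between 0.0527 and 0.128) and with the replicate block (adjusted p = 0.0667), and with the spike-in covariate the difference was 0.15 (adjusted p = 0.932). In bulk samples, fewer cells of a type and less RNA per cell cannot be told apart, here and for every gene below.

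The largest difference among the members was that of Sgk1, a serine/threonine kinase gene that is induced within a short time of glucocorticoid exposure and is known to act on ion channels and on FOXO factors. Its single probe set was at 10.84, 10.69 and 10.94 in the hypomorph arrays. In the wild-type arrays it was at 8.83, 9.51 and 9.29. The groups were far apart, and Sgk1 rose 3.06-fold (log2 difference 1.61, SE 0.17, limma adjusted p = 0.00195). The difference stayed between 1.43 and 1.77 when any array was left out, with adjusted p between 0.00148 and 0.0148. With the spike-in signal as a covariate it was 0.99 (adjusted p = 0.601).

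Tsc22d3 encodes GILZ, a leucine zipper protein that binds NF-kB and AP-1 and is a standard readout of glucocorticoid action in immune cells. Probe set 1425281_a_at was at 9.52, 9.50 and 9.55 in the hypomorph, against 8.26, 8.46 and 8.34 in wild type. The values within each group were close together, and the probe set rose 2.25-fold (log2 difference 1.17, SE 0.08, limma adjusted p = 0.000949), the smallest adjusted p among the members. The brightest probe set, 1420772_a_at, was at 10.35, 10.30 and 10.32 in the hypomorph and 9.26, 9.58 and 9.63 in wild type, and rose 1.79-fold (log2 difference 0.84, SE 0.11, adjusted p = 0.0041). Its hypomorph values spanned 0.05 and its wild-type values 0.37. With the spike-in covariate the differences were 1.08 for 1425281_a_at (adjusted p = 0.394) and 0.31 for 1420772_a_at (adjusted p = 0.764). The third probe set, 1425557_x_at, whose suffix marks probes that can bind other transcripts, was at 5.58, 5.6 and 5.66 in the hypomorph, against 5.66, 5.34 and 5.49 in wild type. It overlapped between the groups and differed by 0.12 (interval -0.11 to 0.35).

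The 3 Tsc22d3 probe sets therefore gave unequal differences. Subtracted within each array, 1425281_a_at lay -0.83, -0.80 and -0.78 from 1420772_a_at in the hypomorph and -1.0, -1.11 and -1.29 from it in wild type. That within-array difference changed by 0.33 and did not overlap between groups (two-sided exact permutation p = 0.1, the smallest possible, and 0.1 after Benjamini-Hochberg over 12 such pairs). Which transcripts of the gene each probe set reads was not analysed here.

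Ddit4, also called REDD1, encodes an inhibitor of mTORC1 that glucocorticoids induce in several tissues. It was at 9.25, 9.03 and 9.41 in the hypomorph, against 8.35, 8.86 and 8.33 in wild type. The groups came close without overlapping, and Ddit4 rose 1.64-fold (log2 difference 0.72, SE 0.17, limma adjusted p = 0.0289). That call was lost when any array but wild-type replicate 2 was left out (adjusted p between 0.0545 and 0.106) and with the replicate block (adjusted p = 0.0736).

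Fkbp5 encodes an immunophilin that joins the HSP90 complex and lowers the receptor's affinity for hormone, and it is among the most widely used target genes. The brighter probe set, 1416125_at, was at 7.54, 7.41 and 7.47 in the hypomorph, against 7.16, 7.61 and 7.40 in wild type. The hypomorph values lay inside the wild-type range, with a difference of 0.08 (interval -0.20 to 0.37, limma adjusted p = 0.669). The dimmer 1448231_at, at 4.24, 4.26 and 4.33 in the hypomorph and 4.25, 4.39 and 4.14 in wild type, differed by 0.01 (interval -0.20 to 0.22). The upper ends of both intervals lie below the Ddit4 estimate of 0.72. The interval of Ddit4 itself was 0.32 to 1.11, which overlaps that of 1416125_at.

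Klf9, a Krüppel-like factor gene and a rapid target of the receptor, had 7 probe sets, none of which passed. The brightest, 1428289_at, was at 7.69, 7.65 and 7.58 in the hypomorph, against 6.96, 8.08 and 7.58 in wild type. Probe set 1428288_at was at 7.49, 7.36 and 7.39 in the hypomorph and 6.74, 8.12 and 7.23 in wild type. In both, the hypomorph arrays sat in the middle of a wild-type spread of more than 1 log2 unit, with replicate 2 highest and replicate 1 lowest. The differences were 0.10 (interval -0.49 to 0.70) and 0.05 (interval -0.68 to 0.78), so that a difference of the size estimated for Ddit4 lies inside the second interval. Probe set 1456341_a_at was at 7.16, 7.13 and 7.03 in the hypomorph and 6.44, 7.62 and 6.69 in wild type, with a difference of 0.19 that became 0.54 and passed without wild-type replicate 2 (limma adjusted p = 0.0214). The 4 other probe sets, all at 4.24 or less on every array, differed by -0.19 to 0.33.

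Cebpd encodes C/EBP delta, a transcription factor induced by glucocorticoids and by inflammatory signals. Probe set 1423233_at was at 7.14, 7.05 and 7.01 in the hypomorph, against 6.45, 7.03 and 6.61 in wild type. Wild-type replicate 2 again reached the hypomorph level, and the difference of 0.37 (interval 0.02 to 0.73) missed the threshold (limma adjusted p = 0.133). Without that array it was 0.54 and passed (adjusted p = 0.0148). The dim 1456605_at differed by 0.07.

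Zbtb16 encodes PLZF, a zinc finger factor that glucocorticoids induce strongly in several tissues and that also marks NKT and innate lymphoid cells. The dim 1419874_x_at was at 3.83, 3.65 and 3.67 in the hypomorph, against 3.19, 3.28 and 3.33 in wild type, and rose 1.36-fold (log2 difference 0.45, limma adjusted p = 0.0156). Its probes can bind other transcripts, its mean was under the lower quartile of all probe sets (3.71), and the call was lost without any 1 hypomorph array (adjusted p between 0.0511 and 0.0576) and with the replicate block (adjusted p = 0.0541). The other probe set, 1427638_at, was at 3.48, 3.91 and 4.21 in the hypomorph and 3.45, 3.87 and 4.07 in wild type. The groups overlapped there, with a difference of 0.07 (interval -0.45 to 0.58). Of 9 measured NK and innate lymphoid markers 0 rose and 0 fell with limma (0 at an unadjusted p under 0.05 in either direction), where 9.76% of all genes rose and 8.47% fell.

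**Figure D2:**
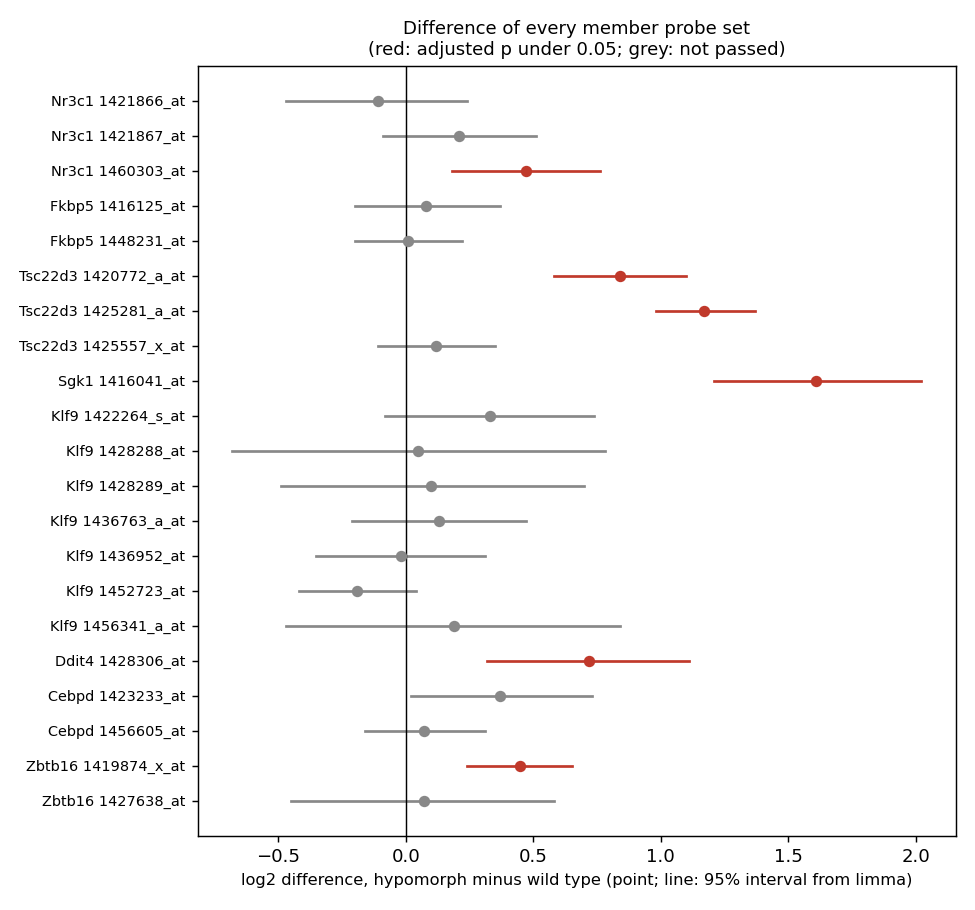
Log2 difference, hypomorph minus wild type (horizontal axis), of all 21 member probe sets, with points for the estimate and lines for the 95% interval from limma. Red marks the 6 with an adjusted p under 0.05, which reach 1.61 for Sgk1, and grey the 15 that did not pass, 7 of them of Klf9.

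Set against Fkbp5 within the same arrays, Sgk1 stood 3.30, 3.28 and 3.48 above it in the hypomorph and 1.68, 1.91 and 1.88 above it in wild type, by the brightest probe set of each. The Sgk1 difference therefore exceeded that of Fkbp5 by 1.53, with no overlap between the groups (two-sided exact permutation p = 0.1, the smallest possible). For Tsc22d3 the excess over Fkbp5 was 0.75 and for Ddit4 0.63, each without overlap and with that same exact p of 0.1, which 3 against 3 arrays cannot go under. These pairs set genes that rose against a gene that did not, on the same values. The lack of overlap is therefore a description and adds no separate support to the calls. Levels of different probe sets are not comparable, and only the change in these within-array differences is.

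The wild-type arrays spread widely for these genes, and in a shared order. The median SD over the member probe sets was 0.0703 in the hypomorph and 0.237 in wild type, compared with 0.0913 and 0.144 over all probe sets. Replicate 2 was the highest wild-type array for 14 of the 21 member probe sets (29.1% of all probe sets), and replicate 1 the lowest for 15 (35.0% of all). Nr3c1, Fkbp5, Sgk1, Klf9 and Cebpd followed that order with replicate 3 between by their brightest probe sets. The probe sets are not independent of each other, since 7 are of Klf9. In its title, wild-type replicate 1 has a different prefix number from the one shared by all other arrays. The labels do not say what that prefix stands for. The title of wild-type replicate 3 ends in a different array name. Without replicate 1 or without replicate 3 of the wild type, 4 member probe sets rose, those of Sgk1, both bright ones of Tsc22d3 and the dim one of Zbtb16, and without replicate 2 the count was 8.

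**Figure D3:**
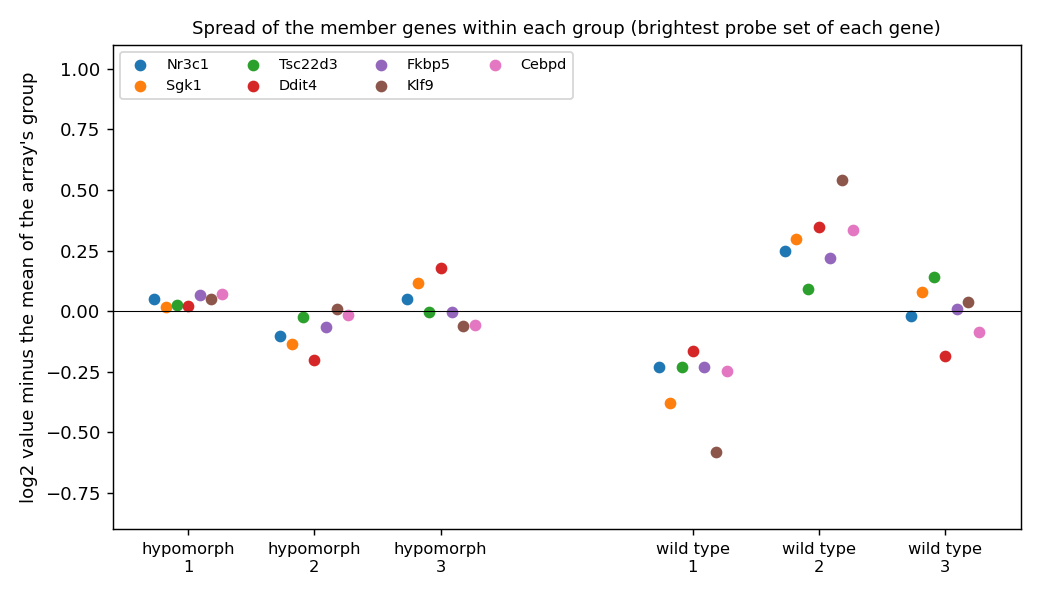
Log2 value of 7 member genes, by the brightest probe set of each, minus the mean of the array's own group (vertical axis), for the 3 hypomorph arrays on the left and the 3 wild-type arrays on the right. Wild-type replicate 1 lies below its group mean for all 7 genes and replicate 2 above it, and the hypomorph arrays lie nearer to 0 for Klf9 and Fkbp5.

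The 3 genes whose pattern over the 6 arrays was most like that of the brightest Nr3c1 probe set were Trps1 (Pearson r = 0.997), Shroom3 (0.9905) and Ficd (0.9847), a description over arrays that share genotype and preparation. None of these 3 passed, with differences of 0.24, 0.63 and 0.17, and r was over 0.95 for 44 genes.

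Among other genes that glucocorticoids are known to induce, 15 of 30 measured rose and 0 fell by 1 probe set each (1 at an unadjusted p under 0.05 with limma), with a median log2 difference of 0.54, where 9.76% of all genes rose, 8.47% fell and the median was -0.05. Mertk, a receptor for apoptotic cells, rose 2.41-fold, with 10.48, 10.39 and 10.47 in the hypomorph and 8.88, 9.49 and 9.16 in wild type (limma adjusted p = 0.00312). The haemoglobin scavenger receptor gene Cd163 rose 3.88-fold, the glutamine synthetase gene Glul 3.06-fold and the cell cycle inhibitor gene Cdkn1a 1.74-fold (adjusted p between 0.00475 and 0.00612). The clock gene Per1, with a well-known response element, was at 9.31, 8.89 and 9.08 in the hypomorph and 7.39, 8.07 and 8.23 in wild type, and rose 2.29-fold (adjusted p = 0.0152). Dusp1, which encodes a MAP kinase phosphatase, rose 2.32-fold (adjusted p = 0.00923) and Nfkbia, which encodes the NF-kB inhibitor IkB alpha, 1.34-fold (adjusted p = 0.0117). The calls of Per1 and Nfkbia were lost without hypomorph replicate 1 or 3 (adjusted p between 0.0511 and 0.0628). Bcl6 (difference 0.19) and Il7r (0.31) did not pass, nor did the liver genes Tat and Pck1, which were dim.

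The count of induced targets fell to 7 without hypomorph replicate 1 or 3. Several of the genes that rose have other known inputs: Cd163 and Mertk also belong to the macrophage marker list, and Dusp1 and Per1 answer to the signals that drive immediate-early genes. Immediate-early genes answer quickly to handling and stimulation. They were higher in 14 of 18 cases and lower in 0 (0 at an unadjusted p under 0.05), against 9.76% and 8.47% of all genes. Their median log2 difference was 1.38, and 9 rose without any 1 hypomorph array. Those of smallest p, which are not those of largest change, were Klf4 (3.26-fold), Jund (1.76-fold), Ier5 (2.0-fold) and Fos (2.78-fold). Their mean log2 value was 10.29, 10.14 and 10.25 in the hypomorph and 8.37, 9.22 and 9.24 in wild type, lowest in the same wild-type replicate 1 as the members.

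Markers of red pulp and marginal zone macrophages also moved with the genotype: 14 of 15 rose and 0 fell (0 at an unadjusted p under 0.05), with a median of 1.64. Their summed signal on the linear scale was 45496 to 49197 in the hypomorph and 10514 to 16935 in wild type, and none of the 15 was under the lower quartile of level on average. Of 10 dendritic cell markers 2 rose and 2 fell, and Itgax, which encodes CD11c, was at 9.94 ± 0.07 in the hypomorph and 10.32 ± 0.13 in wild type (SD, n = 3 each). Of 7 B cell markers 0 rose and 4 fell. Monocyte markers had 1 of 5 higher, T cell markers 1 of 7 higher, neutrophil markers 2 of 8 higher and 1 lower, platelet markers 2 of 6 lower and stromal and endothelial markers 2 of 8 lower, with 0 of 6 erythroid markers passing with limma (0 at an unadjusted p under 0.05). All these marker counts stand beside 9.76% of all genes that rose and 8.47% that fell. The marker lists, like the other gene lists here, were chosen with earlier results of these data known, so the shares are not an independent comparison. The part of macrophage markers, immediate-early genes and spike-in signal in the differences of Sgk1, Tsc22d3 and the other targets was not tested.

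Of 21 measured inflammatory genes that the receptor is known to repress, 8 rose and 0 fell (0 at an unadjusted p under 0.05), with a median of 0.61 and 5 rising without any 1 hypomorph array. The shares over all genes were 9.76% higher and 8.47% lower. Il12b, the p40 subunit of interleukins 12 and 23, was at 7.86, 8.16 and 7.99 in the hypomorph, against 5.98, 6.22 and 5.99 in wild type, and rose 3.85-fold (limma adjusted p = 0.000997). Ccl2, a monocyte chemokine gene, rose 1.87-fold and Il1a 2.41-fold (adjusted p = 0.00137 and 0.00165). The collagenase gene Mmp13 also rose (adjusted p = 0.00192), with 5.54, 6.06 and 6.62 in the hypomorph and 3.41, 3.39 and 3.74 in wild type. Its wild-type mean of 3.51 lies under the lower quartile of all probe sets, so no fold is given. Macrophages are known to express several of these genes, and the macrophage markers were higher in the same arrays. The part of macrophages in these differences was not tested.

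Of 12 measured genes of the receptor's chaperone complex, 0 rose (0 at an unadjusted p under 0.05) and 3 fell, with a median of -0.15. Of all genes 9.76% rose and 8.47% fell. Hsp90aa1, the inducible HSP90 gene, was at 11.52, 11.43 and 11.46 in the hypomorph, against 11.88, 12.49 and 12.72 in wild type, and was 1.86-fold lower (limma adjusted p = 0.026), as it was by both of its other probe sets. The HSP70 co-chaperone genes Dnajb1 and Dnaja1 were 7.64-fold and 1.86-fold lower, which the other, dimmer probe set of each did not show past the threshold (adjusted p over all probe sets = 0.217 and 0.121). Fkbp4, the immunophilin that promotes nuclear transport of the receptor and opposes FKBP5, was at 7.14 ± 0.08 in the hypomorph and 7.26 ± 0.08 in wild type by its brighter probe set (adjusted p = 0.347) and was lower by the dimmer one, 1416363_at, with a log2 difference of -1.57 (adjusted p over all probe sets = 0.00858). The calls of Hsp90aa1 and Dnaja1 held in only 1 of 6 fits that left out an array, and 1 member of the list fell without any array other than wild-type replicate 1.

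Hsd11b1, whose enzyme regenerates active glucocorticoid inside cells, was lower in every hypomorph array. It was at 7.13, 6.99 and 7.03 in the hypomorph, against 7.93, 8.07 and 7.92 in wild type. The groups were far apart relative to their spread, and Hsd11b1 was 1.9-fold lower (log2 difference -0.93, SE 0.08, limma adjusted p = 0.00137), a call that held without any 1 array (-0.97 to -0.88). Of 7 measured genes for steroid metabolism and related receptors, 1 fell, Hsd11b1, and 1 rose, Srd5a3 (1.43-fold), whose product is a polyprenol reductase with a steroid reductase name. Over all genes 9.76% rose and 8.47% fell. The Srd5a3 call was lost without any 1 hypomorph array (adjusted p between 0.0604 and 0.078), and 0 genes of the list rose with the replicate block. H6pd, which supplies NADPH to the HSD11B1 enzyme, differed by 0.35 without passing (adjusted p = 0.217).

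Of 12 coregulator genes, set against 9.76% of all genes that rose and 8.47% that fell, 2 rose, the corepressor gene Nrip1 (1.32-fold) and the deacetylase gene Hdac2 (1.28-fold), and 1 fell, the coactivator gene Ncoa2 (1.42-fold lower, at 4.04 ± 0.14 in the hypomorph and 4.55 ± 0.22 in wild type), with a median of -0.07. All 3 of these calls were lost without any 1 hypomorph array (adjusted p between 0.0538 and 0.14). They were also lost without some wild-type arrays: over all 6 fits that left out 1 array, Nrip1 passed in 2, and Hdac2 and Ncoa2 in 1 each. The coactivator gene Ncoa1 differed by 0.04 by its brighter probe set. Its other probe set, 1418594_a_at, differed by -0.25 without overlap and did not pass (limma adjusted p over all probe sets = 0.0877). Of 17 paralogs of the members, 1 rose, Klf10 (1.7-fold), and 0 fell (3 at an unadjusted p under 0.05). The Klf10 call was lost without any 1 hypomorph array or wild-type replicate 3 (adjusted p between 0.0587 and 0.117), and 0 paralogs rose with the replicate block. Tsc22d1 and Tsc22d4, relatives of Tsc22d3, were within 0.02 of no difference, although a dimmer Tsc22d1 probe set, 1439111_at, fell (-0.43, adjusted p = 0.0457). Klf13, a close relative of Klf9, differed by 0.26, Cebpa by 0.30 and Cebpb by 0.82 without passing (adjusted p = 0.109, 0.0748 and 0.13), and Cebpb passed without wild-type replicate 2 (1.15, adjusted p = 0.0309). The Klf13 probe set 1432543_a_at differed the other way, by -0.26 (limma adjusted p over all probe sets = 0.123), and the dim 1456030_at by 0.1.

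**Figure D4:**
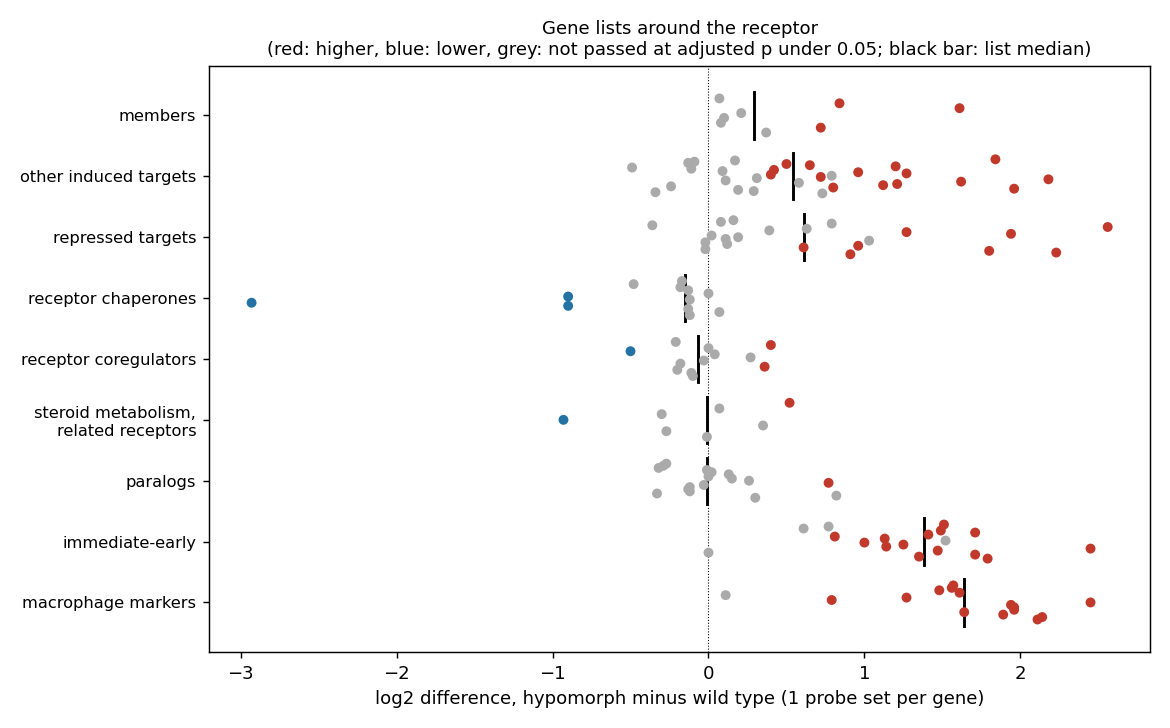
Log2 difference, hypomorph minus wild type (horizontal axis), of each measured gene by its probe set of highest mean, for the members and 8 gene lists (rows). Red points rose, blue points fell and grey points did not pass, and the black bar is the list median, which runs from -0.15 for receptor chaperones to 1.64 for macrophage markers.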

How the data were processed

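Labelled cDNA from CD11c+ spleen cells of 3 hypomorph and 3 wild-type samples was hybridized to Affymetrix MOE430A arrays, which have no read depth, so that the number of arrays limits the precision. The authors deposited 1 log2 value per probe set and array, made with Affymetrix Power Tools, per the submitters' processing notes. Its version and the background correction and summarization chosen are not stated in what was used here. Base 2 was inferred from the range, 1.96 to 14.3, and normalization between arrays from their close medians, under which a difference in total RNA per cell would not show.

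Of 22690 rows, 1 had no value and 64 were controls. By the platform annotation 20379 probe sets name 1 gene and were tested, 691 name several and 1555 none. limma 3.58.1 in R 4.3.3 (lmFit, eBayes, two-sided, no trend, covariate or filter) compared the genotypes over all 20379 probe sets, and over 12393 genes by the probe set of highest mean for the lists. The fit was tested on simulated data. Python 3.11.15, pandas 2.3.3 and matplotlib 3.10.9 were used otherwise. Promoters and genome build are from RefSeq (GRCm38.p6).

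Members and lists were chosen with earlier results of these data known. Named are all member probe sets, up to 4 genes of smallest p per list and direction, and genes fixed by name; H6pd, Tat, Pck1 and the markers were chosen after their values were seen. Listed genes with no single-gene probe set were not analysed here. Alternatives were other ways to combine probe sets, filters, normalizations, variance models, a replicate block, a spike-in covariate, a 1.5-fold minimum and leaving out each array.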

Additional observations from a re-analysis of the deposited data

How the results depend on the processing

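The 6 member probe sets that rose numbered 3 without any 1 hypomorph array, 4 without wild-type replicate 1 or 3 and 8 without wild-type replicate 2, a range of 3 to 8. They numbered 3 with the replicate number as a block, 0 with the spike-in signal as a covariate, and 3 genes both by 1 probe set per gene and by the average over a gene's probe sets, where 8 genes were counted in place of 21 probe sets. Filters left 5, and quantile normalization, median centring, array weights and eBayes with trend and robust fitting left 6. No member fell in any of these fits. The block pairs samples by their replicate number, and the labels give no other link between them. Deviations from the group means correlated at 0.159, 0.019 and 0.1 for same-numbered samples, and at -0.167 to 0.134 for other-numbered ones. These values do not settle whether the pairs share more than that number. Under the covariate the sign turned for Nr3c1 1421866_at (0.33) and 1421867_at (-0.0043), Fkbp5 1416125_at (-0.19), Klf9 1428288_at (-0.45), 1428289_at (-0.69), 1436763_a_at (-0.1) and 1452723_at (0.24), and Zbtb16 1427638_at (-1.26). Array weights turned Klf9 1428288_at (-0.03) and 1428289_at (-0.0035), and quantile normalization turned Klf9 1436952_at (0.05), Ncoa1 (-0.00079) and Tsc22d1 (-0.08). Leaving out single arrays turned differences near 0, with ranges of -0.03 to 0.19 and -0.05 to 0.08 for Fkbp5 1416125_at and 1448231_at. For Klf9 they were -0.26 to 0.43 (1428288_at), -0.19 to 0.37 (1428289_at), -0.14 to 0.13 (1436952_at) and -0.05 to 0.54 (1456341_a_at). They were -0.0041 to 0.13 for Cebpd 1456605_at, -0.11 to 0.26 for Zbtb16 1427638_at, -0.02 to 0.09 for Ncoa1, -0.11 to 0.24 for Tsc22d1 and -0.04 to 0.03 for Tsc22d4. None of the turned values passed, and the cause was not tested. Over these alternatives 241 values of member probe sets kept their direction and side of the threshold, 23 changed sign, 22 lost a call and 2 gained 1. Counted over every probe set, 24 of 52 probe sets of the other induced targets rose and 8 of 26 of the chaperones fell, beside 15 of 30 and 3 of 12 counted by gene. Of all probe sets 9.95% rose and 7.73% fell.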
